A study of Tribolium castaneum with 183 samples.

Results

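Of 56 genes that the study listed for their part in insect reproduction, 42 are described here, chosen as all listed genes apart from 14, namely the vitellogenins, 3 other genes annotated as their receptors and 9 genes of juvenile hormone and ecdysone. The list assigns 13 of the 42 to insulin and TOR signalling, 14 to the ovary, 10 to ecdysone, 4 to juvenile hormone and 1 to the vitellogenin receptor. They were measured in the red flour beetle *Tribolium castaneum*, a pest of stored flour, by sequencing the mRNA of whole females of the strain Cro1, which descends from wild beetles and was kept in the laboratory at the control climate. From the egg stage on, females lived in 1 of 4 climates: Control at 33°C and 70% relative humidity (47 females), Dry at 33°C and 30% (48 females), Hot at 37°C and 70% (45 females) and Hot-Dry at 37°C and 30% (43 females). Every female carried the same strain background, and no allele or agent other than climate separated the groups. The labels give an age of 8 weeks and call the females reproducing. The females came from 12 full-sib families, each split over the 4 climates, with 3 or 4 females per family and climate.

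Levels are given in cpm, the count of reads of a gene scaled to the size of its library. Libraries held between 4873334 and 15533288 counted reads. All 42 genes passed the filter on low counts, in a table of 17078 genes of which 12113 passed. RNA came from the whole body, so fewer cells of a type, for example a smaller ovary, and less RNA per cell cannot be told apart in any result below. The 2 vitellogenins together took a mean of 17.6% of Control reads, 17.9% of Dry, 14.4% of Hot and 11.5% of Hot-Dry reads. With both left out of the fit, the same 10 members were called in Hot and the same 15 in Hot-Dry. The shares of all tested genes called in that fit are not given here. Other cell types could not be followed, since the reference used here does not pair the gene identifiers of the files with gene descriptions.

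In insects, insulin-like peptides act through the insulin receptor, PI3K and the kinase Akt, which restrains the transcription factor Foxo, while the kinase TOR senses amino acids and drives growth and yolk protein production through S6 kinase. Ecdysone, made in adult females largely by the ovary, binds a receptor pair of EcR and USP and acts through a cascade of nuclear receptors, and juvenile hormone controls when yolk is made and taken up. The ovarian genes include germline factors such as Vasa and the piRNA proteins Piwi and Spindle E, which protect the germline genome against transposons.

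Heat lowered a subset of these genes by small amounts, and drought at 33°C changed none past the threshold. In Hot, 10 of the 42 genes were down-regulated and 0 were up-regulated relative to Control (edgeR's quasi-likelihood test, adjusted p of 0.05 or less), where 25.1% of all tested genes were called, 12.2% down and 12.9% up. In Hot-Dry, 13 genes were down-regulated and 2 were up-regulated, where 30.7% of all tested genes were called, 15.1% down and 15.7% up. The share of members called thus lay near that of all genes in both climates, while the calls among members were mostly decreases and those among all genes were split evenly. In Dry, 0 of the 42 genes were called with edgeR's test, 2 had an unadjusted p under 0.05, and the background was 0.809% of all tested genes, 0.421% up and 0.388% down. DESeq2 and limma-voom likewise called 0 members in Dry. With family as a block on the single females, 11 members were called down and 1 up in Hot (the increase was E78), and 14 down and 3 up in Hot-Dry, beside 31.8% and 37.2% of all tested genes. These fits count sibs of 1 family and climate as single units. With counts summed per family and climate and family as a block, 7 members were called in Hot and 12 in Hot-Dry, all decreases, beside 16.2% and 22.8% of all tested genes. Without the block, the sums gave 3 and 7 members, beside 6.11% and 10.8%.

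The changes were small. The median log2 fold change of the 42 genes was -0.05 in Hot and -0.08 in Hot-Dry, beside -0.01 for all tested genes in both. The fold change was negative for 27 of the 42 in Hot and for 36 of the 42 in Hot-Dry, beside 51.5% and 51.7% of all tested genes. All comparisons with Control share the same Control females, so the values of the treatments are not independent of each other. Down-regulated were 7 of 14 ovarian genes in Hot and 7 in Hot-Dry, and 3 and 4 of the 13 insulin and TOR genes. Of the 10 ecdysone genes, 0 were called in Hot by edgeR's test, with 2 at an unadjusted p under 0.05, and 3 were called in Hot-Dry, 2 down and 1 up. Of the juvenile hormone genes and the vitellogenin receptor, 0 were called in either, with 0 of 4 and 1 of 1 at an unadjusted p under 0.05 in both climates.

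**Figure D1:**
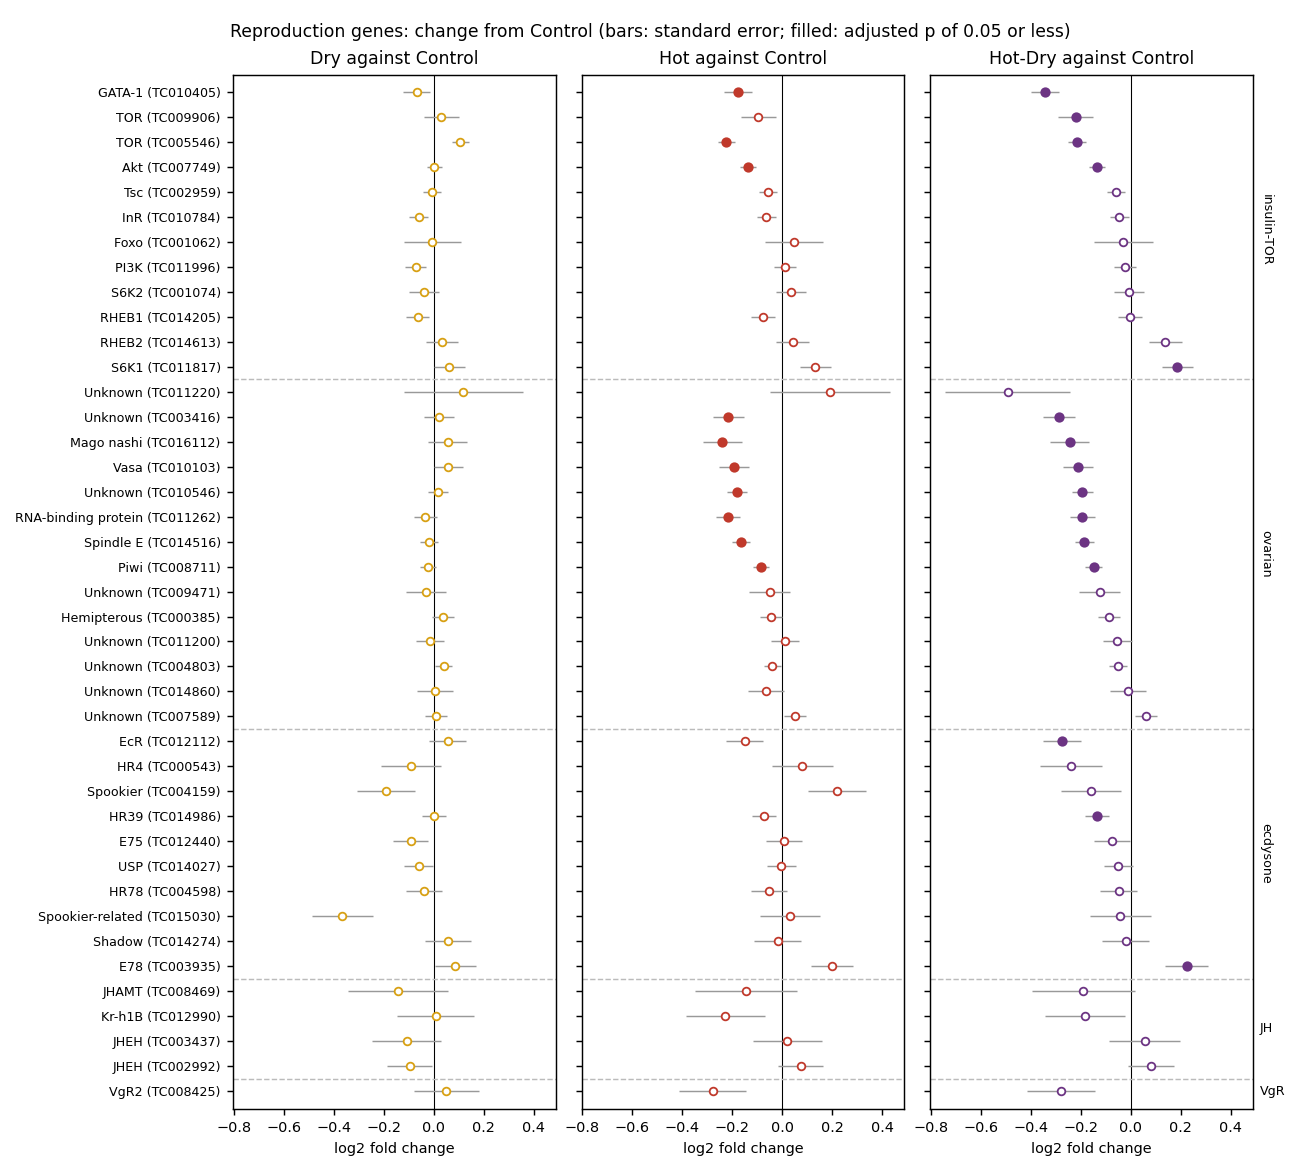
Log2 fold change (x axis) of the members (y axis, grouped by process) in Dry, Hot and Hot-Dry against Control. Points are estimates of edgeR's quasi-likelihood fit, bars are standard errors, and filled points have an adjusted p of 0.05 or less: 10 genes in Hot, 15 in Hot-Dry and 0 in Dry.

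Among the insulin and TOR genes, both genes annotated TOR, Akt and GATA-1 fell, and S6K1 rose. Here and for the genes further below, lost calls are not listed for every gene. Counts summed per family and climate without a block called 3 members in Hot and 7 in Hot-Dry. Limma-voom with a correlation within family and climate gave the same numbers. One of 2 listed genes annotated TOR, TC005546, had the smallest adjusted p of all members in Hot. Its level ran from 48.4 to 84.7 cpm in Control (median 61.5), from 49.2 to 82 cpm in Dry (median 64.9), from 42 to 65 cpm in Hot (median 51.5) and from 40.6 to 62.1 cpm in Hot-Dry (median 53.1). The ranges overlapped, but 88.9% of Hot females and 97.7% of Hot-Dry females lay below the Control median. The log2 fold change was -0.22 ± 0.035 (SE) in Hot (edgeR's quasi-likelihood test, adjusted p = 1.22e-07) and -0.22 ± 0.035 in Hot-Dry (adjusted p = 2.46e-07), and the gene was called in 27 of 27 alternative fits in each climate. In Dry the gene pointed the other way, with a log2 fold change of 0.11 ± 0.034 that missed the threshold with edgeR (adjusted p = 0.133). In 11 of 12 families the Dry mean exceeded that of Control (exact two-sided sign-flip test, unadjusted p = 0.0269), and the gene was called only in the fit with family as a block among the 27 alternatives. The sign-flip test was run on all 42 genes in Dry, Hot and Hot-Dry, and its p is unadjusted throughout.

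The second gene annotated TOR, TC009906, ran from 31.4 to 77.7 cpm in Control (median 48.5), from 24.8 to 72.7 cpm in Hot (median 46.1) and from 22.8 to 61.9 cpm in Hot-Dry (median 42.8). All 3 ranges overlapped widely. It fell in Hot-Dry (log2 fold change -0.22 ± 0.072, edgeR adjusted p = 0.0111) and did not pass the test in Hot (-0.10 ± 0.071, adjusted p = 0.348). The Hot-Dry call was lost when females of a vial were summed without a family block and in limma-voom with a correlation within vials.

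Akt (TC007749), the kinase between the insulin receptor and Foxo, had a narrow spread, with 44.9 to 68.4 cpm in Control (median 54.9), 41.9 to 68.1 cpm in Hot (median 49.5) and 38.7 to 67 cpm in Hot-Dry (median 49). Although the ranges overlapped, 82.2% of Hot and 81.4% of Hot-Dry females lay below the Control median. Its log2 fold change was -0.14 ± 0.032 in each climate (edgeR's quasi-likelihood test, adjusted p = 0.000498 in Hot and 0.000414 in Hot-Dry). Akt was at 0.00 ± 0.031 in Dry, the smallest distance from Control among the called genes of this pathway.

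GATA-1 (TC010405), related to the transcription factors that switch on yolk genes in mosquitoes once amino acids are sensed through TOR, showed the deepest decrease of the pathway in Hot-Dry. It ran from 130 to 311 cpm in Control (median 215), 147 to 273 cpm in Dry (median 201), 104 to 258 cpm in Hot (median 187) and 67.9 to 238 cpm in Hot-Dry (median 164). The medians stepped down in that order, and 93% of Hot-Dry females lay below the Control median, with overlapping ranges. The log2 fold change was -0.18 ± 0.056 in Hot (edgeR adjusted p = 0.0121) and -0.34 ± 0.057 in Hot-Dry (adjusted p = 2.75e-07). The Hot call was lost in 5 of 27 alternatives, among them the sums per vial with family as a block (adjusted p = 0.0767), and the Hot-Dry call in none. Hot-Dry was below Hot by 0.17 ± 0.057 on the log2 scale, which missed the threshold (edgeR adjusted p = 0.0987).

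S6K1 (TC011817), a gene annotated as the kinase downstream of TOR, was the member of the pathway that rose. Its level ran from 23.9 to 73.8 cpm in Control (median 47.8) and from 38.3 to 88.5 cpm in Hot-Dry (median 51.9), and the ranges overlapped. The log2 fold change was 0.19 ± 0.062 in Hot-Dry (edgeR adjusted p = 0.014) and 0.13 ± 0.061 in Hot, short of the threshold (adjusted p = 0.105). The rise appeared in 8 of 12 families (exact sign-flip test, p = 0.0308) and lost its call in 4 of 27 alternatives, including the sums per vial with family as a block (adjusted p = 0.0633).

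Other genes of the pathway were not called against Control by edgeR's test. They included InR (the insulin receptor), PI3K, which makes the lipid signal that activates Akt, Foxo, Tsc, which restrains the GTPase Rheb, RHEB1 and RHEB2, annotated as that activator of TOR, and S6K2. Their log2 fold changes in Hot-Dry lay between -0.06 (Tsc, SE 0.037) and 0.14 (RHEB2, SE 0.066, edgeR adjusted p = 0.105). For RHEB2 the fit with family as a block called the rise in Hot-Dry. In Dry, PI3K was lower in 8 of 12 families (exact sign-flip test, unadjusted p = 0.0439), while edgeR's test gave an adjusted p of 0.7. Foxo spread most among them, from 11.8 to 66.7 cpm in Control and from 9.48 to 80.4 cpm in Hot-Dry.

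The ovarian genes held most decreases. Vasa (TC010103), an RNA helicase of the germline, ran from 61.8 to 137 cpm in Control (median 88.4), from 48.3 to 123 cpm in Hot (median 79.8) and from 30.6 to 110 cpm in Hot-Dry (median 84.1). Ranges overlapped throughout. Vasa fell in Hot (log2 fold change -0.19 ± 0.059, edgeR adjusted p = 0.00985) and in Hot-Dry (-0.21 ± 0.060, adjusted p = 0.00353), with lower family means in 11 and 10 of 12 families. Both calls were lost in 2 of 27 alternatives, the sums per vial without a block and limma-voom with a correlation within vials.

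Spindle E (TC014516), a helicase known from Drosophila as part of the piRNA pathway, ran from 36.3 to 67.1 cpm in Control (median 45.6), from 33.3 to 58.1 cpm in Hot (median 39.9) and from 33 to 48.8 cpm in Hot-Dry (median 41.1). The ranges overlapped, and the highest Hot-Dry female stood little above the Control median. Log2 fold changes were -0.17 ± 0.038 in Hot (edgeR adjusted p = 0.000351) and -0.19 ± 0.038 in Hot-Dry (adjusted p = 3.95e-05). Piwi (TC008711), an Argonaute protein that carries piRNAs, had the smallest change of the genes called in Hot. It ran from 292 to 442 cpm in Control (median 354), from 250 to 457 cpm in Hot (median 338) and from 217 to 387 cpm in Hot-Dry (median 325), with overlap. It fell in Hot-Dry (-0.15 ± 0.033, edgeR adjusted p = 0.000111), and its call in Hot (-0.09 ± 0.032, adjusted p = 0.0342) held in 9 of 27 alternatives, so that it sits at the threshold.

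Mago nashi (TC016112), a core protein of the exon junction complex that in Drosophila is needed to set up the axes of the egg, ran from 57.9 to 169 cpm in Control (median 75.8), from 44 to 128 cpm in Hot (median 65.4) and from 38.1 to 145 cpm in Hot-Dry (median 64.9). The overlap was wide, and 68.9% and 65.1% of females lay below the Control median. It fell by 0.24 on the log2 scale in each climate (SE 0.078 and 0.079, edgeR adjusted p = 0.015 and 0.011). Family means were lower in 9 of 12 families in each, with exact sign-flip p of 0.0571 in Hot and 0.0371 in Hot-Dry. Leaving out family 103 ended the call in both climates.

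A gene annotated as an RNA-binding protein (TC011262) ran from 124 to 255 cpm in Control (median 187), from 96.8 to 215 cpm in Hot (median 166) and from 95.1 to 207 cpm in Hot-Dry (median 168). Below the Control median lay 84.4% of Hot and 90.7% of Hot-Dry females, in overlapping ranges. The log2 fold change was -0.22 ± 0.049 in Hot (edgeR adjusted p = 0.000237) and -0.19 ± 0.049 in Hot-Dry (adjusted p = 0.000938).

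A pair of ovarian genes without a name fell in Hot-Dry in all families. TC010546 ran from 33.1 to 64.6 cpm in Control (median 50.8), from 29.5 to 55.8 cpm in Hot (median 46.8) and from 28.7 to 56.1 cpm in Hot-Dry (median 44.5), with log2 fold changes of -0.18 ± 0.041 and -0.19 ± 0.042 (edgeR adjusted p = 0.000341 and 8.14e-05). TC003416 ran from 72.7 to 186 cpm in Control (median 133), from 65.2 to 156 cpm in Hot (median 115) and from 47.1 to 166 cpm in Hot-Dry (median 114), with log2 fold changes of -0.22 ± 0.062 and -0.29 ± 0.063 (edgeR adjusted p = 0.00523 and 0.000118). The ranges of both genes overlapped between climates. For TC003416 the Hot call was lost in the sums per vial with family as a block (adjusted p = 0.0526).

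The remaining 7 ovarian genes, Hemipterous (in Drosophila a kinase that activates JNK) and 6 without a name, were not called against Control by edgeR's test. TC011220 was the most variable of all 42 genes, with 0 to 5.13 cpm in Control (median 1.7), 0.114 to 4.87 cpm in Hot (median 1.78) and 0.0956 to 3.46 cpm in Hot-Dry (median 1.03). These levels reach down to the floor of 3 counts, which is 0.337 cpm at the median library size, and its log2 fold change of -0.49 ± 0.25 in Hot-Dry had an edgeR adjusted p of 0.126. The other 6 lay between -0.12 and 0.06 in Hot-Dry on the log2 scale.

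**Figure D2:**
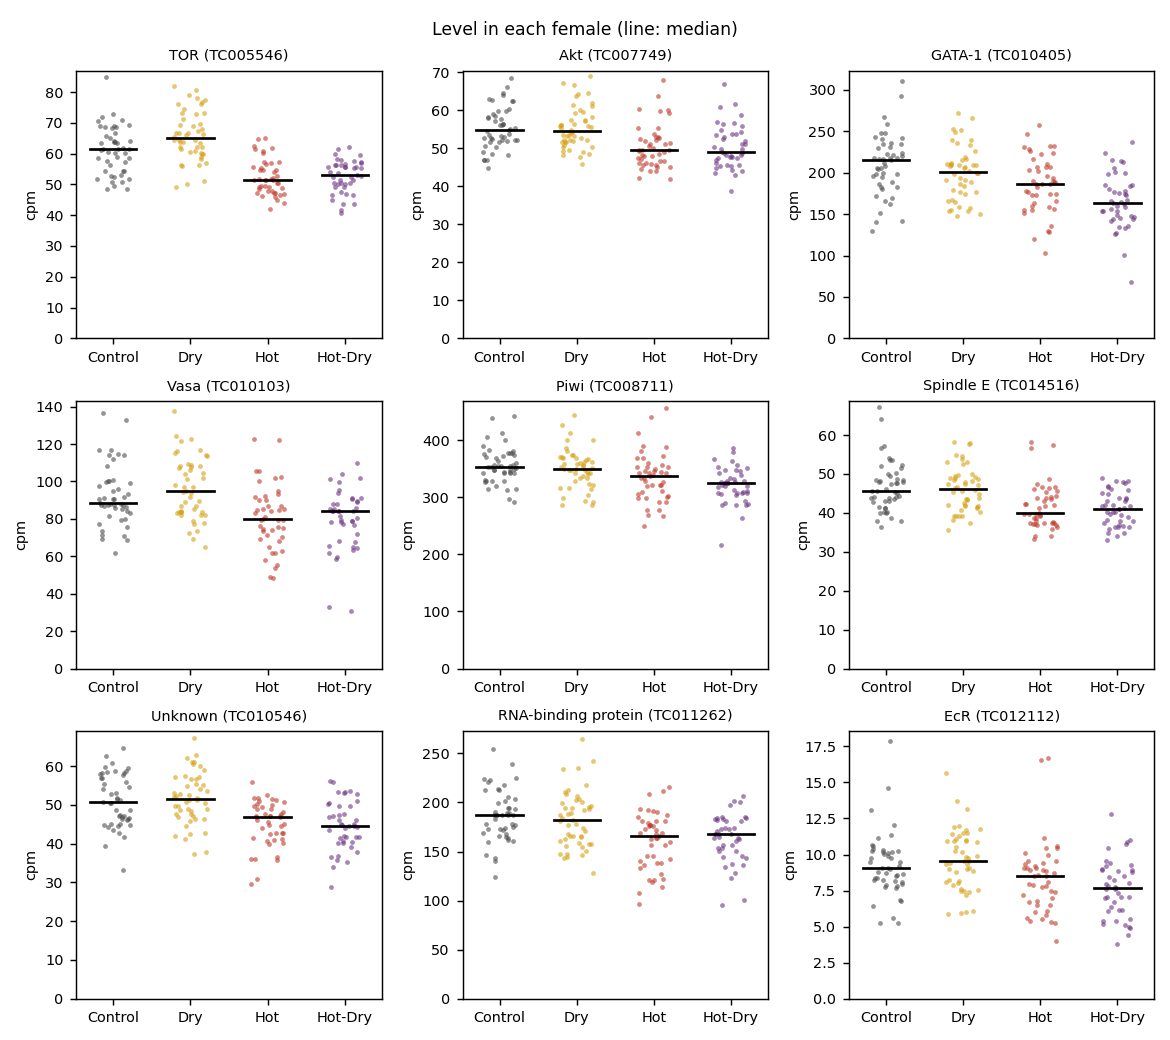
Level in cpm (y axis, from 0) of 9 called genes in each female, by climate; each point is a female and the line is the median. Hot and Hot-Dry females sit lower than Control and Dry females in most panels, and all ranges overlap, for example a median of 61.5 cpm in Control against 51.5 cpm in Hot for TOR (TC005546).

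Of the 10 ecdysone genes, EcR and HR39 fell and E78 rose in Hot-Dry, and edgeR's test called no other against Control. EcR (TC012112), the ecdysone receptor, ran from 5.22 to 17.9 cpm in Control (median 9.05), from 5.88 to 15.6 cpm in Dry (median 9.52), from 4.04 to 16.7 cpm in Hot (median 8.52) and from 3.78 to 12.8 cpm in Hot-Dry (median 7.65). In these overlapping ranges, 79.1% of Hot-Dry females lay below the Control median. EcR fell in Hot-Dry (log2 fold change -0.28 ± 0.077, edgeR adjusted p = 0.00275) and did not pass the test in Hot (-0.15 ± 0.076, adjusted p = 0.134). Its partner USP (TC014027) was at -0.05 ± 0.059 in Hot-Dry (adjusted p = 0.559), with 27.5 to 46.4 cpm in Control and 23.7 to 48.6 cpm in Hot-Dry.

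Of the nuclear receptors downstream, HR39 (TC014986) fell in Hot-Dry, from a Control median of 84.7 cpm (66.2 to 115) to 78.7 cpm (35.3 to 112). E78 (TC003935) rose, from a Control median of 2.45 cpm (0.955 to 5.32) to 2.79 cpm (1.36 to 5.61). Both pairs of ranges overlapped. The log2 fold change was -0.14 ± 0.048 for HR39 and 0.22 ± 0.085 for E78 (edgeR's quasi-likelihood test, adjusted p = 0.021 and 0.0337), and neither call was stable. HR39 lost its call in 6 of 27 alternatives and E78 in 10 of 27, including for both the sums per vial with family as a block (adjusted p = 0.0634 and 0.0617). E75, HR4 and HR78 were not called by edgeR's test, with log2 fold changes in Hot-Dry of -0.08, -0.24 and -0.05 (SE 0.072, 0.124 and 0.074). The family means of HR4 fell in 8 of 12 families (exact sign-flip test, unadjusted p = 0.0239).

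Of the genes for ecdysone synthesis, Spookier (TC004159), whose Drosophila counterpart acts early in the pathway, ran from 0.648 to 16.6 cpm in Control (median 7.81), 3.52 to 13.4 cpm in Dry (median 6.71), 2.5 to 24.8 cpm in Hot (median 8.49) and 1.32 to 12.6 cpm in Hot-Dry (median 7.14). The medians of both dry climates lay below those of both humid climates. Spookier-related (TC015030) had a median of 1.06 cpm in Control (0.314 to 2.07), 0.828 cpm in Dry (0.26 to 2.12), 1.17 cpm in Hot (0.192 to 2.1) and 1.15 cpm in Hot-Dry (0.378 to 2.19), and the ranges overlapped, with 77.1% of Dry females below the Control median. Its log2 fold change in Dry was -0.36 ± 0.122 and missed the threshold with edgeR (adjusted p = 0.157), while 9 of 12 families were lower (exact sign-flip test, unadjusted p = 0.0156). Shadow (TC014274), a later enzyme of the pathway, was within 0.06 of Control on the log2 scale in all 3 treatments (SE 0.091 to 0.094).

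The 4 juvenile hormone genes were not called against Control by edgeR's test and were the most scattered group, with a median standard deviation between females of the same climate of 0.86 on the log2 scale, beside 0.30 over the 42 genes and 0.39 over all tested genes. It was 0.98 for JHAMT, 0.92 for JHEH TC003437, 0.80 for Kr-h1B and 0.46 for JHEH TC002992. The value of JHEH TC003437 includes 3 Hot-Dry females at 0.724 to 1.18 cpm, described further below. JHAMT (TC008469), the methyltransferase of juvenile hormone synthesis, ran from 0.324 to 14 cpm in Control (median 3.58), 0.725 to 12.2 cpm in Hot (median 3.23) and 0.433 to 12.3 cpm in Hot-Dry (median 3.42). Kr-h1B (TC012990), annotated as a form of the transcription factor that juvenile hormone induces, ran from 69.9 to 632 cpm in Control (median 313), 54 to 754 cpm in Hot (median 203) and 52.5 to 603 cpm in Hot-Dry (median 234). Such ranges within a climate exceed any difference between climates, with log2 fold changes for Kr-h1B of -0.23 ± 0.156 in Hot and -0.18 ± 0.158 in Hot-Dry (edgeR adjusted p = 0.306 and 0.409). The 2 genes annotated JHEH, the hydrolase that degrades the hormone, were at 0.08 ± 0.092 (TC002992) and 0.05 ± 0.141 (TC003437) in Hot-Dry.

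VgR2 (TC008425), annotated as a receptor that takes yolk protein into the egg, ran from 44.1 to 276 cpm in Control (median 85.9), 58.4 to 268 cpm in Dry (median 97), 45.5 to 237 cpm in Hot (median 78.8) and 36.9 to 198 cpm in Hot-Dry (median 78.3). The wide ranges overlapped. Its log2 fold change was -0.28 in both heat treatments (SE 0.133 and 0.135) and missed the threshold (edgeR adjusted p = 0.113 and 0.104), and the fit with family as a block called it in both.

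Heat was also compared within the dry climates. Hot-Dry against Dry had 17 members down-regulated and 1 up-regulated, beside 32.3% of all tested genes called, 15.8% down and 16.5% up. Of the ovarian genes, 10 of 14 were among the decreases. The largest log2 changes among stable calls were TOR TC005546 (-0.32 ± 0.035, edgeR adjusted p = 3.34e-14), EcR (-0.33 ± 0.076, adjusted p = 0.000229) and TC003416 (-0.31 ± 0.062, adjusted p = 2.82e-05), each called in 27 of 27 alternatives. Hemipterous (-0.13 ± 0.045, adjusted p = 0.0212), TC004803 (-0.09 ± 0.035, adjusted p = 0.0298), TC011220 (-0.61 ± 0.247, adjusted p = 0.0458) and VgR2 (-0.33 ± 0.134, adjusted p = 0.0465) joined only in this comparison or in Hot against Dry, and their calls were lost in 6, 11, 15 and 16 of 27 alternatives. The increase was that of Spookier-related (0.32 ± 0.124, edgeR adjusted p = 0.0335), lost in 10 of 27, while S6K1 and E78 were not called (adjusted p = 0.115 and 0.214).

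Hot against Dry had 10 members down-regulated and 2 up-regulated, beside 32.2% of all tested genes, 16.1% in each direction. The increases were Spookier (0.41 ± 0.116, edgeR adjusted p = 0.00339, called in 26 of 27 alternatives) and Spookier-related (0.39 ± 0.122, adjusted p = 0.00729, called in 25 of 27). The decreases were 6 ovarian genes, 2 of insulin and TOR signalling, EcR and VgR2.

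Drought added little to heat. Hot-Dry against Hot had 0 members called by edgeR's test and 4 at an unadjusted p under 0.05, beside 2.28% of all tested genes called, 0.991% up and 1.29% down. Limma-voom called 0 members and DESeq2 called 1, Spookier, which stood at -0.38 ± 0.120 with edgeR (adjusted p = 0.0687). With family as a block on the single females, 2 members were called, HR4 and Spookier, both down, beside 4.52% of all tested genes. Sums per family and climate with that block called 0 members. The interaction of heat and drought had 0 members called by edgeR and 3 at an unadjusted p under 0.05, where 0.00826% of all tested genes were called, and DESeq2 and limma-voom called 0 members. Decreases in Hot-Dry that did not pass in Hot, such as those of EcR and TOR TC009906, are thus not shown to differ between the climates: the difference of Hot-Dry from Hot was -0.13 ± 0.077 for EcR and -0.13 ± 0.072 for TC009906 (edgeR adjusted p = 0.522 and 0.468).

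Since each family was split over the climates, the change could be followed within families. The exact p given here were not adjusted for the number of genes. From Control to Hot-Dry, the mean of log2 cpm fell in 12 of 12 families for TOR TC005546, Spindle E, TC010546 and TC003416 (exact two-sided sign-flip test, p = 0.000488 for each, the smallest that 12 families allow). The family differences ran from -0.42 to -0.05 for TOR TC005546, from -0.32 to -0.05 for Spindle E, from -0.38 to -0.06 for TC010546 and from -1.22 to -0.01 for TC003416. GATA-1, Piwi and TC011262 fell in 11 of 12 families (exact p = 0.00146, 0.00146 and 0.00244). From Control to Hot, 11 of 12 families were lower for TOR TC005546, Akt, Vasa, Spindle E, TC010546, TC003416 and TC011262. S6K1 and E78 rose in Hot-Dry in 8 of 12 families each, and E78 was higher in Hot in 11 of 12 (exact p = 0.00342) although its test over females in Hot missed the threshold (edgeR adjusted p = 0.0695).

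**Figure D3:**
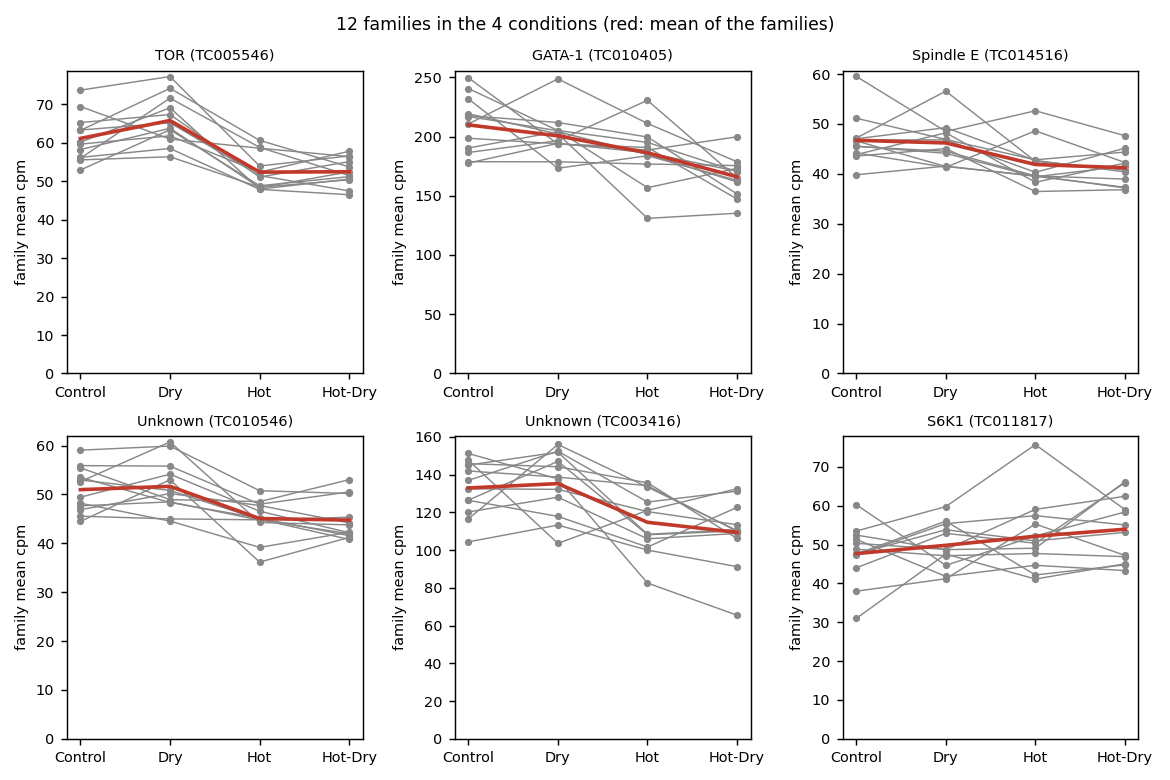
Mean cpm (y axis, from 0) of each of the 12 families (grey lines) in the 4 climates (x axis) for 6 genes, with the mean of the families in red. The lines of TOR (TC005546), Spindle E and the unnamed TC010546 and TC003416 end lower in Hot-Dry than in Control in 12 of 12 families, and those of S6K1 end higher in 8 of 12.

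Females of 1 family and climate were full sibs that grew up together, and were not fully independent. Their deviations from the climate means correlated by 0.309 on average, and those of sibs in different climates, without a shared second number, by 0.196. The share below holds the likeness of family and of vial together. The share of variance within a climate that lay between these 48 vials had a median of 32.1% over the 42 genes and 35.3% over all tested genes. It was highest for HR78 (58.5%), the unnamed ovarian gene TC009471 (56.9%) and Mago nashi (53.5%), and lowest for E78 (8.68%) and JHEH TC003437 (11.3%). With counts summed per vial and family as a block, 7 members were called in Hot and 12 in Hot-Dry, all decreases, beside 16.2% and 22.8% of all tested genes. Without the block, the sums gave 3 and 7 members, all decreases, beside 6.11% and 10.8% of all tested genes. The genes that varied least between females of a climate were Akt and Piwi, each with a standard deviation of 0.15 on the log2 scale, and the most variable were TC011220 (1.10) and JHAMT (0.98).

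Some members rose and fell together from female to female. Over 9 pairs, of known partners or of genes that share an annotation, correlations were taken on deviations of log2 cpm from the climate means over all females. They were tested with 100000 permutations within family and climate and adjusted over the 9 pairs. Such permutations leave differences between vials in place. The p therefore concern association within vials, while r and rho also hold the likeness between vials. EcR and USP had r = 0.73 and rho = 0.72, and r lay between 0.59 and 0.81 within the 4 climates (permutation test, adjusted p = 2.25e-05, from the smallest p these permutations can give). Vasa and Piwi had r = 0.70 and rho = 0.65 (adjusted p = 2.25e-05), S6K2 and S6K1 r = 0.76 and rho = 0.74, and the 2 JHEH genes r = 0.73 and rho = 0.70, each with the same adjusted p from the permutation test. Without the 2 females farthest from the median of the first gene, these 4 values of r were 0.71, 0.69, 0.74 and 0.61. Such values were not particular to the chosen pairs. Outside them, HR78 had r = 0.81 with USP and r = 0.86 with S6K2, values picked after they were seen and given without a test.

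Piwi and Spindle E, both of the piRNA pathway, were less closely tied (r = 0.29, rho = 0.22, permutation adjusted p = 7.2e-05 and 0.00178), with r = 0.01 in Dry and 0.36 to 0.41 in the other climates, and r = 0.24 without the 2 farthest females. Akt and Foxo ran in opposite directions (r = -0.37, rho = -0.38, permutation adjusted p = 0.00331 and 0.00178), from -0.58 in Control to -0.14 in Hot, and -0.36 without the 2 farthest females. Within vials, no relation past the threshold was found for the 2 TOR genes (r = 0.07, rho = 0.07, permutation adjusted p = 0.203 and 0.261). The same held for RHEB1 and RHEB2 (r = 0.18, rho = 0.16, permutation adjusted p = 0.557 and 0.962). On deviations from vial means, r was 0.11 for the TOR pair and 0.06 for the RHEB pair. A relation between vials was not tested for these pairs. Their r without the 2 farthest females was 0.08 and 0.13.

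Looked at after their values were known, and so given without a test, the extremes among all 861 pairs of members formed opposed sides. VgR2 and Mago nashi rose together (r = 0.87), as did S6K2 with HR78 (r = 0.86), Foxo (r = 0.82), RHEB2 (r = 0.81) and USP (r = 0.80). Between the sides r was negative, as for HR78 and Mago nashi (r = -0.82, from -0.85 to -0.78 within the 4 climates) and for S6K2 and VgR2 (r = -0.80). All 45 pairs of the 10 ecdysone genes were positive, with a mean r of 0.36, beside 0.24 for the insulin and TOR genes, 0.08 for the ovarian genes and 0.0016 over all pairs of tested genes. The points share library and scaling, and r with log2 library size was 0.34 for VgR2, 0.30 for Mago nashi, -0.22 for S6K2, -0.30 for HR78, -0.13 for Foxo, -0.10 for RHEB2 and -0.02 for USP. The part of library size in these correlations was not tested.

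**Figure D4:**
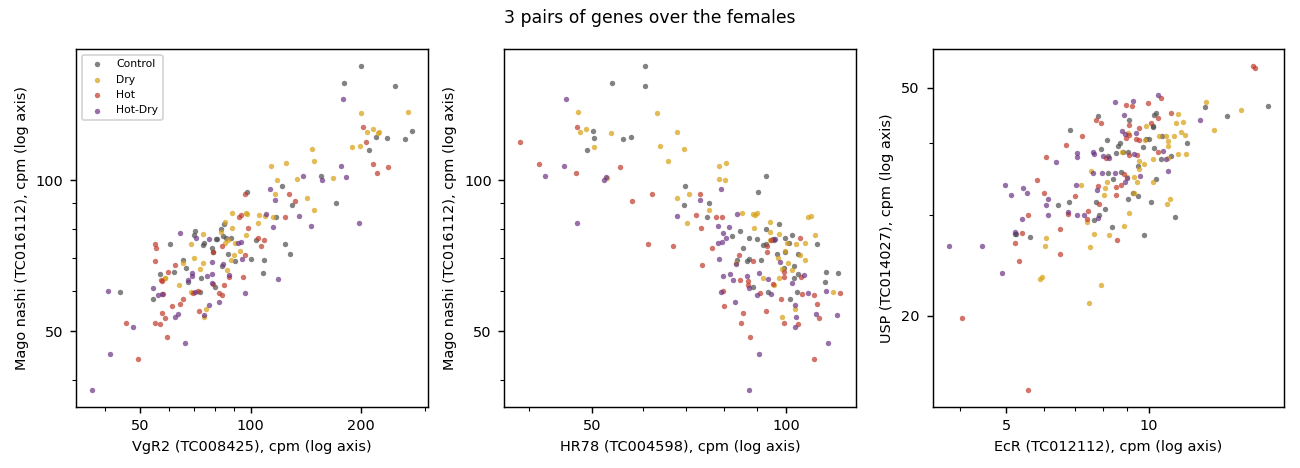
Levels in cpm (both axes logarithmic) of 3 pairs of genes in all females, coloured by climate: VgR2 and Mago nashi (r = 0.87 on deviations of log2 cpm from the climate means), HR78 and Mago nashi (r = -0.82), and EcR and USP (r = 0.73). Females of all 4 climates lie along the same band in each panel.

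In 4 females under 1% of reads fell on the vitellogenins, 3 of them in Hot-Dry (0.0756%, 0.111% and 0.375%) and 1 in Hot (0.62%), where the next lowest female had 1.51%. These females were picked out after their values were seen, and their members' values are a description. In the 3 Hot-Dry females, JHEH TC003437 was almost silent, at 0.724, 0.768 and 1.18 cpm (9, 6 and 8 counts), while the other Hot-Dry females ran from 24.5 to 119 cpm with a median of 71.4 cpm. HR4 was at 2.01, 4.35 and 4.56 cpm against 7.28 to 33.6 cpm, Spookier at 1.45, 2.05 and 1.32 cpm against 2.93 to 12.6 cpm, and the ovarian gene TC011200 at 20.6, 20.9 and 19.6 cpm against 24.5 to 58.4 cpm. For these 4 members all 3 females lay below every other Hot-Dry female, and for 0 members did all 3 lie above. The share of all tested genes that set these females apart in the same way is not given here. Whether the members differ from other genes in this was therefore not tested.

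Other members separated the 3 females only in part. Vasa was at 32.6 and 30.6 cpm in those with 0.111% and 0.375%, against 58.5 to 110 cpm in the others. In the same 2 females, Mago nashi was at 45.1 and 38.1 cpm, below the lowest of the others at 47.4 cpm. In those with 0.0756% and 0.111%, 3 more members lay below all others. These were JHEH TC002992 (34 and 21.1 against at least 51.6 cpm), TC003416 (47.1 and 56.6 against at least 64.4 cpm) and Shadow (4.26 and 4.74 against at least 5.67 cpm). JHAMT was at 12.3 and 11.7 cpm in those with 0.0756% and 0.111%, above the 0.433 to 9.41 cpm of the others, and InR at 128 and 106 cpm in those with 0.111% and 0.375%, above 62 to 104 cpm. The Hot female with 0.62% was lowest in its climate for HR4 (5.52 cpm), TC003416 (65.2 cpm) and Vasa (48.3 cpm) and highest for JHAMT (12.2 cpm), but its JHEH TC003437 lay within the range of the other Hot females. Control levels went down to 3.78 cpm for HR4, so that 1 of these females lay below all Control females, and to 0.648 cpm for Spookier, below all 4.

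Without these 4 females, 9 members were down-regulated in Hot, and 12 were down-regulated and 1 up-regulated in Hot-Dry. The shares of all tested genes called in this fit are not given here. The calls of Piwi in Hot and of HR39 and E78 in Hot-Dry were lost (edgeR adjusted p = 0.0648, 0.0641 and 0.0531), and Vasa in Hot-Dry moved from -0.21 to -0.15 on the log2 scale (adjusted p = 0.0217). In Hot-Dry against Dry, the calls of HR39, VgR2, TC011220 and TC004803 were lost (edgeR adjusted p = 0.0611, 0.0788, 0.0901 and 0.0527), as was that of VgR2 in Hot against Dry (adjusted p = 0.0598). The Hot-Dry females left out include the lowest of that climate for both JHEH genes, so the choice itself raised their Hot-Dry levels. Hot-Dry then exceeded Dry by 0.25 ± 0.083 for TC002992 and 0.27 ± 0.108 for TC003437 (edgeR adjusted p = 0.0144 and 0.0449). Against Control the same fit gave 0.15 ± 0.084 and 0.16 ± 0.109 (adjusted p = 0.167 and 0.281). With all females the values against Dry were 0.18 ± 0.091 and 0.16 ± 0.140 and missed the threshold (adjusted p = 0.129 and 0.391). A rise of these genes in Hot-Dry can thus not be concluded from this fit.

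**Figure D5:**
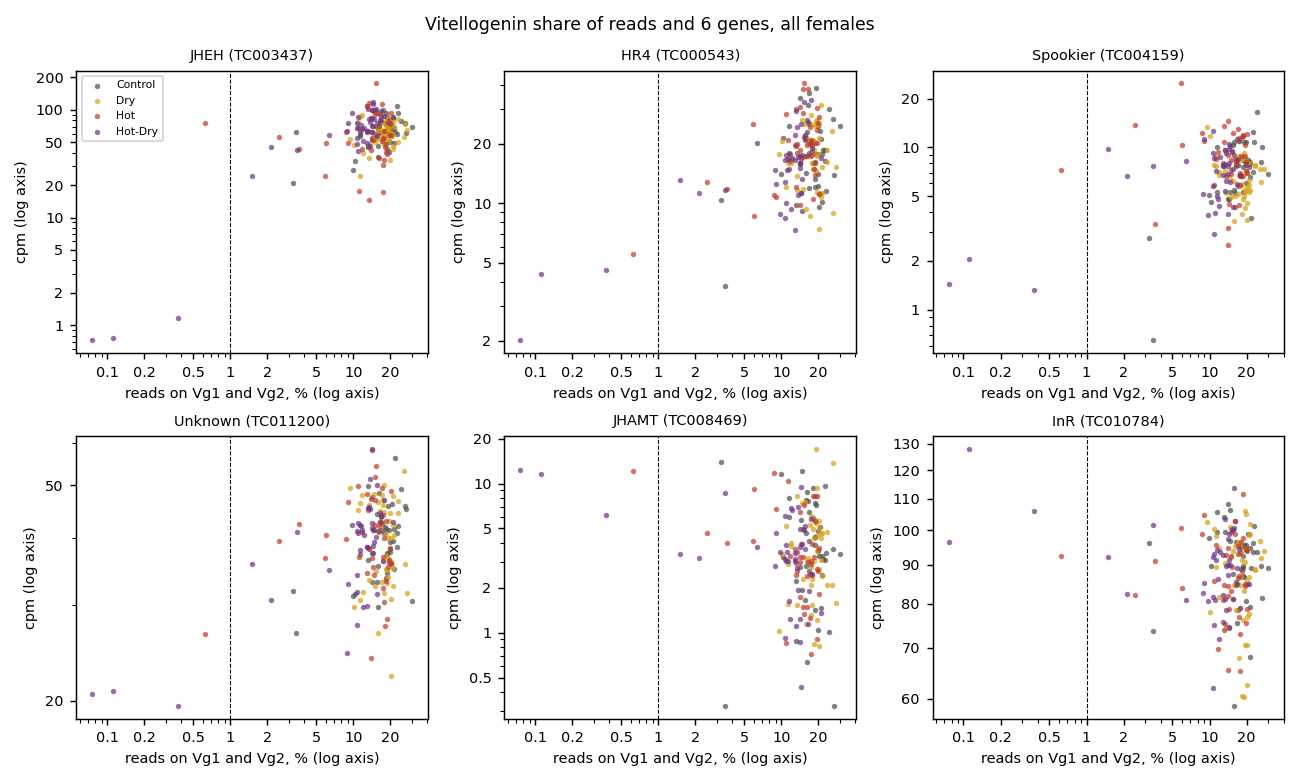
Level in cpm of 6 members (y axes, logarithmic) against the percentage of reads on Vg1 and Vg2 (x axes, logarithmic) in all females, coloured by climate; the dashed line marks 1%. The 3 Hot-Dry females left of the line sit at 0.724 to 1.18 cpm for JHEH (TC003437), far below the other females.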

How the data were processed

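The authors deposited 1 table of counts, reads per gene and female without normalization. Per the labels, libraries were made from whole-body RNA with the LEXOGEN mRNA kit, and the submitters' processing notes name STAR 2.5 and featureCounts. How strand and multiply mapped reads were treated is not given in the sources used here, so genes with near-identical copies are uncertain. All columns matched a female, and 0 columns of other samples were present. Every row named a gene.

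The filter kept genes exceeding 0.5 cpm in 5 females or more. They were tested with edgeR 4.0.16 (R 4.3.3): TMM scaling, a mean per climate, the quasi-likelihood test, Benjamini-Hochberg adjustment over 12113 genes, and a threshold of 0.05. Log2 cpm had a prior count of 2. Alternatives used DESeq2 1.42.0 and limma 3.58.1. Procedures were tested on simulated data. The 42 members, the process groups and the pairs were chosen with earlier results of these data known. The text names each member called in at least 1 of 7 comparisons, members of the pairs, and others by range, and the values of 1 member and its pair are not reported here. Lists of marker and pathway genes could not be matched to the identifiers. The number that opens a female's name was taken as the family, and both numbers together as the replicate number (48). Females of different climates that share both numbers correlated by 0.191 on average (deviations from climate means), and those sharing the family alone by 0.196. The labels and the paper differ in the age of the females, which enters no comparison.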

Additional observations from a re-analysis of the deposited data

How the results depend on the processing

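Of 55 calls of a member in a comparison, all 55 kept their direction in every one of up to 27 alternatives. Of 1485 such values 1308 stayed on their side of the threshold and 177 lost the call. The number of members called changed most when the likeness of females within vials was taken into account. Sums per vial without a replicate block gave 3 members in Hot, 7 in Hot-Dry, 7 in Hot-Dry against Dry and 4 in Hot against Dry. In the same order, 6.11%, 10.8%, 12.4% and 12.8% of all tested genes were called. Limma-voom with a correlation within vials (estimated at 0.350) gave 3, 7, 10 and 5 members, beside 6.53%, 12.1%, 12.9% and 11.8% of all tested genes. Fewer independent units enter both fits. With family as a replicate block, 1 member was called in Dry (TOR TC005546, up), beside 1.42% of all tested genes. The same block called 2 members in Hot-Dry against Hot (HR4 and Spookier, down), beside 4.52% of all tested genes. DESeq2 called 1 in the latter, while sums per vial with the family block called 0 members in either. The block of 48 replicate numbers gave 13 members in Hot and 15 in Hot-Dry, beside 29.1% and 35.1% of all tested genes. Leaving out 1 family at a time gave 8 to 11 members in Hot, 12 to 18 in Hot-Dry, 13 to 19 in Hot-Dry against Dry, 10 to 13 in Hot against Dry, 0 to 3 in Hot-Dry against Hot (3 without family 432: HR4, Spookier and GATA-1) and 0 in Dry and in the interaction. The shares of all tested genes called without 1 family are not given here. On the cpm scale without the log, the exact sign-flip test over families no longer passed for 2 genes in Hot-Dry, with mean differences of 0.425 cpm for E78 (p = 0.0649) and -13.2 cpm for Mago nashi (p = 0.0679). The 9 correlations kept their direction and their side of the threshold on cpm and on deviations from vial means. The fits without vitellogenin reads and without the 4 females lowest in them were added after the data had been seen. Members near the floor of 3 counts, above all TC011220, are limited by depth.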
